A study of Mus musculus with 6 samples.

Results

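The iron genes described here are 10 genes that carry out iron uptake, storage and export, chosen by name: Fth1, Ftl1, Tfrc, Slc40a1, Slc11a1, Slc11a2, Hmox1, Ireb2, Aco1 and Steap3. All 10 were found among the 16516 genes of the deposited table, and all 10 passed the filter on low counts that left 13151 genes for testing. RNA-seq was performed on CD11b+ cells, which the labels call microglia, isolated from the cortex of male C57BL6/J mice aged 8 to 10 weeks by magnetic-activated cell sorting. The 4LPS group (3 samples) received 4 daily intraperitoneal injections of lipopolysaccharide (LPS) from Escherichia coli at 500 µg/kg, and the NS group (3 samples) received normal saline on the same schedule. Cells were taken on day 7, and each sample pooled the cells of 2 mice, so values of single animals were not measured. The comparison asks what repeated peripheral inflammation does to these cells, since the study examined how such inflammation changes later ischemic brain injury. Besides microglia, CD11b marks other myeloid cells and part of the natural killer (NK) cells.

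Total counts lay between 15158342 and 15746606 per sample, so the groups were sequenced to much the same depth. The 9 microglia markers checked summed to 44540 to 45170 CPM (counts scaled to a common library total, with TMM factors) in the 4LPS samples and to 45410 to 47670 CPM in the NS samples, and none of them was at 0. Markers of other cells were also present. NK cell markers summed to 114.4 to 129.2 CPM in the 4LPS samples, against 4.275 to 9.173 CPM in the NS samples, with 8 of 8 genes higher, and neutrophil markers to 416.3 to 988.5 CPM, against 161.1 to 632.1 CPM, with 0 of 8 called by edgeR. Dendritic cell markers (30.25 to 40.62 CPM in the 4LPS samples, against 16.47 to 29.07 CPM in the NS samples) had 5 of 7 genes higher, and T cell markers (14.21 to 17.88 CPM, against 4.091 to 5.33 CPM) had 3 of the 3 tested higher. Monocyte markers (79.67 to 129.4 CPM in the 4LPS samples, against 39.92 to 101.7 CPM in the NS samples) had 0 of 6 called. On the principal components, which held 61.9% and 19.0% of the variance, NS replicate 3 stood apart from the other NS samples on both (-9.58 against -42.2 and -33.9 on the first, -31.1 against 5.40 and 5.93 on the second), and 4LPS replicate 1 lay apart from its group on the second (24.8 against -9.92 and 4.94). In bulk samples of this kind, fewer cells of a type and less RNA per cell cannot be told apart.

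Cells take up iron mainly as transferrin bound to the transferrin receptor, reduce it in the endosome and carry it into the cytosol with divalent metal transporters. Iron that is not used is stored inside the ferritin shell, and ferroportin is the exporter. Heme is a further source, opened by heme oxygenase. Iron regulatory proteins bind hairpins in the messenger RNAs, called iron-responsive elements, when iron is scarce: in a 5′ untranslated region (UTR) the bound protein blocks translation, and in the 3′ UTR of the transferrin receptor it protects the messenger from decay. Microglia and other macrophages handle iron from debris and red cells, and inflammation is known to shift macrophages towards holding iron.

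The hairpins are shown because the iron regulatory proteins reach their messengers through them, though a match of letters is a description and not a measured binding site. They were searched in the GENCODE vM39 transcripts of GRCm39, and the deposited table was matched to that annotation by gene symbol. The search asked for an unpaired C, 5 bases, a loop of 6 bases that starts CAGTG, and 5 bases that pair with the first 5 by Watson-Crick or G-T pairs. In the sequences below, given 5′ to 3′ in DNA letters, the capitals mark the unpaired C and the loop.
Fth1 5′ UTR: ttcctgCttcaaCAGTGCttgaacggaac
Ftl1 5′ UTR: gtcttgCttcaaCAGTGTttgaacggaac
Slc40a1 5′ UTR: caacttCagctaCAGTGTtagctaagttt
Tfrc 3′ UTR, element 1: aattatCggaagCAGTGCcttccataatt
Tfrc 3′ UTR, element 2: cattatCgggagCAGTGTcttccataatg
Tfrc 3′ UTR, element 3: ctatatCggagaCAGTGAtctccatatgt
Tfrc 3′ UTR, element 4: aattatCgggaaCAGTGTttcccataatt
Slc11a2 3′ UTR, 4 of 5 pairs: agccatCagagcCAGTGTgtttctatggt

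The Fth1 element lies at chr19:9960096-9960124 on the plus strand, with its unpaired C at base 93 of the transcript. The Ftl1 element lies at chr7:45109203-45109231 and the Slc40a1 element at chr1:45964625-45964653, both on the minus strand. The 4 Tfrc elements lie at chr16:32450037-32450065, chr16:32450416-32450444, chr16:32450481-32450509 and chr16:32450528-32450556 on the plus strand. Elements with all 5 pairs were found in the 5′ UTR of 0.138% of 15926 genes (22 genes) and in the 3′ UTR of 0.684% (109 genes), taking the canonical transcript of each. The Slc11a2 element, at chr15:100293034-100293062 on the minus strand, has 4 of 5 pairs. It came from a wider search that was added after the first and that found a match in the 3′ UTR of 4.97% of genes, again in canonical transcripts. The Slc11a2 element is not in the canonical transcript of its gene, so that share is not a like comparison for it. It is present in 9 of 21 coding transcripts of Slc11a2. Elements with all 5 pairs were in 17 of 18 coding transcripts of Fth1 and 6 of 7 of Ftl1. For Slc40a1 they were in 5 of 9, and for Tfrc in 10 of 12. The counts are per gene, so transcripts with and without an element were not told apart. The wider search also matched the 5′ UTR of 1 of 18 coding transcripts of Aco1, and it matched no UTR of Slc11a1, Hmox1, Ireb2 or Steap3.

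By edgeR with all samples, every iron gene that passed the test was higher after 4LPS. Both ferritin subunits, both divalent metal transporters and heme oxygenase were higher in 4LPS samples than in NS samples by 1.37-fold to 1.75-fold, while the exporter Slc40a1 stayed within the spread between samples and Tfrc, the transferrin receptor, had a lower mean in 4LPS samples that did not pass the test. By edgeR's quasi-likelihood test with Benjamini-Hochberg adjustment over all 13151 genes, 6 of the 10 iron genes were higher in 4LPS samples at an adjusted p under 0.05 (Slc11a2, Fth1, Ftl1, Hmox1, Slc11a1 and Aco1) and 0 were lower. At an unadjusted p under 0.05, 1 was lower (Tfrc), and DESeq2 called 1 lower. Of all genes tested, 9.95% were higher and 6.43% lower, and 16.4% passed in either direction. The median log2 fold change of the 10 genes was 0.33, against -0.016 over all genes tested. In the same 6 genes every 4LPS sample lay above every NS sample, as it did in 19.9% of all genes tested (37.4% were separated in either direction). Fth1, Ftl1, Slc11a1, Slc11a2 and Hmox1 passed in 19 of 19 alternative settings, and Aco1 in 2 of 19. Tfrc passed as lower in 3 of 19. Without NS replicate 3, which stood apart, 5 of the 10 were higher, with Aco1 no longer called (adjusted p = 0.0614).

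**Figure D1:**
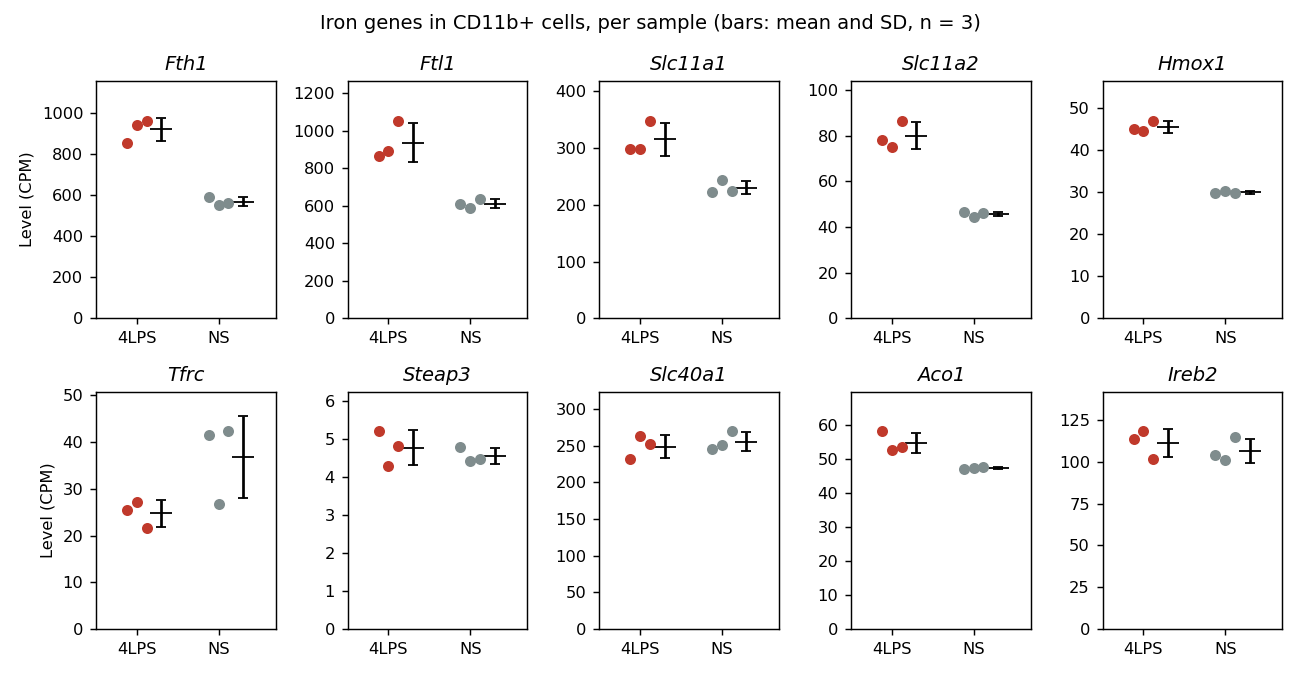
Level of each iron gene (y axis, CPM, each panel from 0) in the 3 4LPS samples (red) and the 3 NS samples (grey), with the mean and SD beside the points. In the top row every 4LPS sample lies above every NS sample, and in the bottom row only Aco1 is separated, by 4.82 CPM.

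Ferritin stores iron in a shell built from heavy and light chains, and the messengers of both rose. Fth1 (chr19:9957911-9962462), the heavy chain that oxidizes ferrous iron as it enters the shell, had 854.8, 942.6 and 963.7 CPM in 4LPS samples, against 592.2, 550.1 and 560.9 CPM in NS samples. The groups were 262.6 CPM apart at their nearest samples. Its level was 1.62-fold higher in 4LPS samples, a log2 fold change of 0.70 with a standard error (SE) of 0.063 (adjusted p = 3.61e-04). Ftl1 (chr7:45107367-45109308), the light chain that helps the iron core to form, had 863.7, 891.8 and 1055 CPM in 4LPS samples, against 610.1, 589.2 and 637.2 CPM in NS samples. 4LPS replicate 3 was the highest of the 6, and again the groups did not overlap. The change was 1.53-fold (log2 0.61, SE 0.083, adjusted p = 0.00263). Both elements printed for the ferritins are in the 5′ UTR, where iron regulatory proteins act on translation, and these values are messenger levels only: ferritin protein was not measured here.

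Together the ferritins took 0.1675%, 0.178% and 0.1925% of all counts in the 4LPS samples, against 0.126%, 0.1172% and 0.1228% in the NS samples. The mean share was 0.179% ± 0.0126 in 4LPS samples and 0.122% ± 0.00446 in NS samples (SD, n = 3 each), 1.47-fold higher after 4LPS. Every 4LPS sample lay above every NS sample, and the exact two-sided permutation test gave p = 0.1, the smallest that 3 samples against 3 can give (0.2 after adjustment over the 4 shares and ratios tested). The balance between the subunits was close to even in both groups. The ratio of Ftl1 to Fth1, in FPKM (fragments scaled for gene length and library size), was 0.969, 0.908 and 1.05 in 4LPS samples, against 0.989, 1.03 and 1.09 in NS samples. The groups overlapped (exact permutation p = 0.4). The reference annotation holds 6 copies named after the ferritin genes (Fth or Ftl names with ps), of which 0 are in the table. Copies under other names were not searched. Reads from such copies cannot be told apart from reads of Fth1 and Ftl1.

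**Figure D2:**
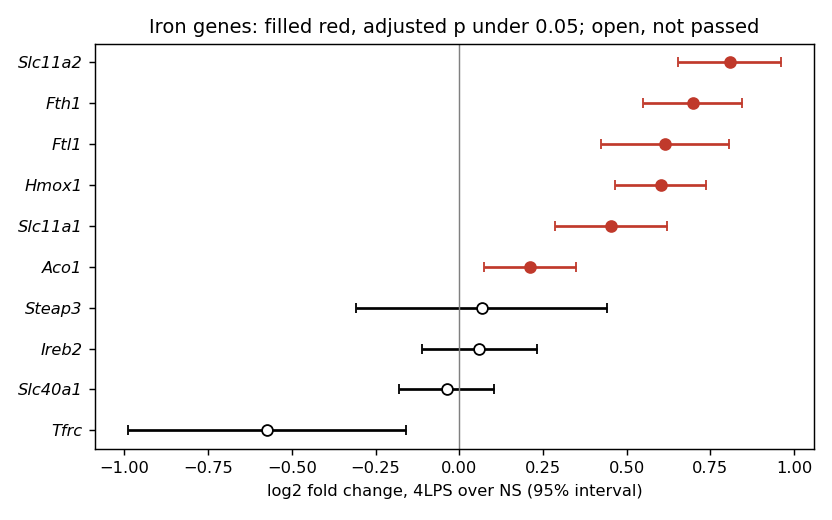
Log2 fold change of each iron gene, 4LPS over NS (x axis), with its 95% interval from edgeR, sorted by size. The 6 filled red points passed at an adjusted p under 0.05 and lie above 0, and the widest intervals belong to Tfrc (-0.99 to -0.16) and Steap3 (-0.31 to 0.44).

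Iron carriers into the cytosol rose as well. Slc11a2 (chr15:100285776-100322953), the divalent metal transporter DMT1 that moves ferrous iron out of the endosome, had 78.11, 75.18 and 86.65 CPM in 4LPS samples, against 46.51, 44.58 and 46.05 CPM in NS samples. The NS samples lay close together and far below the lowest 4LPS sample. The fold change, 1.75 (log2 0.81, SE 0.067), was the largest of the 10, with the smallest adjusted p (2.24e-04). Slc11a1 (chr1:74414303-74425448), the related transporter NRAMP1 of the phagosome membrane, had 298.1, 299.4 and 348.7 CPM in 4LPS samples, against 223.4, 243.9 and 223.6 CPM in NS samples. It was 1.37-fold higher (log2 0.45, SE 0.072, adjusted p = 0.00538), with no overlap. Neutrophils also carry Slc11a1. The neutrophil marker sum was 988.5, 416.3 and 639.7 CPM in 4LPS replicates 1 to 3 and 161.1, 164.5 and 632.1 CPM in NS replicates 1 to 3. Monocyte markers summed to 129.4, 79.67 and 105.4 CPM in 4LPS replicates 1 to 3. In NS replicates 1 to 3 they summed to 46.01, 39.92 and 101.7 CPM. The part of neutrophils or monocytes in the Slc11a1 values was not tested.

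Tfrc (chr16:32427556-32451612), the transferrin receptor, had 25.5, 27.19 and 21.56 CPM in 4LPS samples, against 41.54, 26.66 and 42.33 CPM in NS samples. NS replicate 2 lay among the 4LPS samples, so the groups overlapped, although the other NS samples were well above. The log2 fold change was -0.57 (SE 0.18, 95% interval -0.99 to -0.16, adjusted p = 0.0653), which did not pass. Without NS replicate 2 it was -0.76 (adjusted p = 0.00826), and it also passed with DESeq2 (adjusted p = 0.00881) and without a composition factor (adjusted p = 0.0406). Brain endothelial cells are known for high transferrin receptor. The 8 endothelial markers summed to 276.4, 314.2 and 480.4 CPM in 4LPS samples, against 602.8, 489.8 and 823.2 CPM in NS samples, with 3 of 8 lower (Pecam1, Slco1c1 and Itm2a) in 4LPS samples. Among NS samples the order was the same in both measures, with replicate 2 lowest and replicate 3 highest. Among 4LPS samples the orders differed, and replicate 3 had the highest endothelial sum and the lowest Tfrc level. The part of endothelial RNA in the Tfrc values was not tested.

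Set against each other, a storage gene and an uptake gene gave a ratio that separated the groups. The FPKM ratio of Fth1 to Tfrc was 236.5, 241.2 and 321.6 in 4LPS samples, against 100, 144.4 and 93.86 in NS samples. Its mean was 266 ± 47.8 in 4LPS samples and 113 ± 27.6 in NS samples (SD, n = 3 each), 2.38-fold higher, with no overlap. The exact permutation p was 0.1, the smallest possible (0.2 adjusted). The endothelial sums given beside Tfrc were lower in 4LPS samples, where the ratio was higher. Among NS samples the ratio also ran opposite to these sums, but within the 4LPS group replicate 3 had the highest of both. Their part in the ratio was not tested.

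Steap3 (chr1:120118487-120200435), the reductase that makes endosomal iron ferrous, was the least abundant of the 10, with 63 to 77 counts in a sample. It had 5.194, 4.282 and 4.814 CPM in 4LPS samples, against 4.783, 4.401 and 4.463 CPM in NS samples. The groups overlapped (log2 0.066, SE 0.16, adjusted p = 0.806). At this depth the 95% interval still allowed a fold change from 0.808 to 1.36, so a modest change was not detectable.

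The exporter was not separated between the groups. Slc40a1 (chr1:45947211-45965683), ferroportin, the known iron exporter of animal cells and the target of the hormone hepcidin, had 231.2, 262.6 and 251.8 CPM in 4LPS samples, against 245.3, 250.4 and 269.6 CPM in NS samples. The ranges overlapped by 17.2 CPM, and each group had a sample outside the other's range. The log2 fold change was -0.038 (SE 0.061, adjusted p = 0.703), and its 95% interval covered fold changes from 0.883 to 1.08, which leaves out the changes estimated for the ferritins. Macrophages at the borders of the brain carry Slc40a1 too, and their 8 markers summed to 522.1, 230.4 and 356.6 CPM in 4LPS samples, against 288.4, 313 and 421.2 CPM in NS samples, with 1 of 8 higher (Ms4a7). The part of these macrophages in the Slc40a1 values was not tested.

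Heme oxygenase was higher in 4LPS samples. Hmox1 (chr8:75820241-75827217), heme oxygenase 1, which opens heme to free iron, carbon monoxide and biliverdin, had 44.92, 44.39 and 46.99 CPM in 4LPS samples, against 29.83, 30.3 and 29.69 CPM in NS samples. Both groups were tight, and they lay 14.1 CPM apart at their nearest samples. The change was 1.52-fold (log2 0.60, SE 0.059, adjusted p = 0.0004995). Red cell markers, a possible sign of heme in the sample, summed to 7.69 to 41.63 CPM in 4LPS samples and 2.203 to 26.09 CPM in NS samples. By edgeR 0 of the 3 of them that were tested passed.

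Of the sensors, Aco1 was slightly higher in 4LPS samples and Ireb2 was not separated. Aco1 (chr4:40142998-40199010), iron regulatory protein 1, is an aconitase while it holds an iron-sulfur cluster and binds RNA without it. It had 58.21, 52.61 and 53.63 CPM in 4LPS samples, against 47.01, 47.28 and 47.79 CPM in NS samples. The groups did not overlap, but the change was small, 1.16-fold (log2 0.21, SE 0.060), and its adjusted p of 0.0487 sat at the threshold. The call was lost in 17 of 19 alternative settings, where the adjusted p ran up to 0.269. Ireb2 (chr9:54770970-54820011), iron regulatory protein 2, which is broken down when iron is plentiful, had 113.4, 118.3 and 101.8 CPM in 4LPS samples, against 104, 101.2 and 114.7 CPM in NS samples. The ranges overlapped (log2 0.060, SE 0.074, adjusted p = 0.606). The FPKM ratio of Ireb2 to Aco1 averaged 1.48 ± 0.139 in 4LPS samples and 1.64 ± 0.0975 in NS samples (SD, n = 3 each, exact permutation p = 0.3). Both proteins are controlled mainly after translation, which messenger counts do not show.

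**Figure D3:**
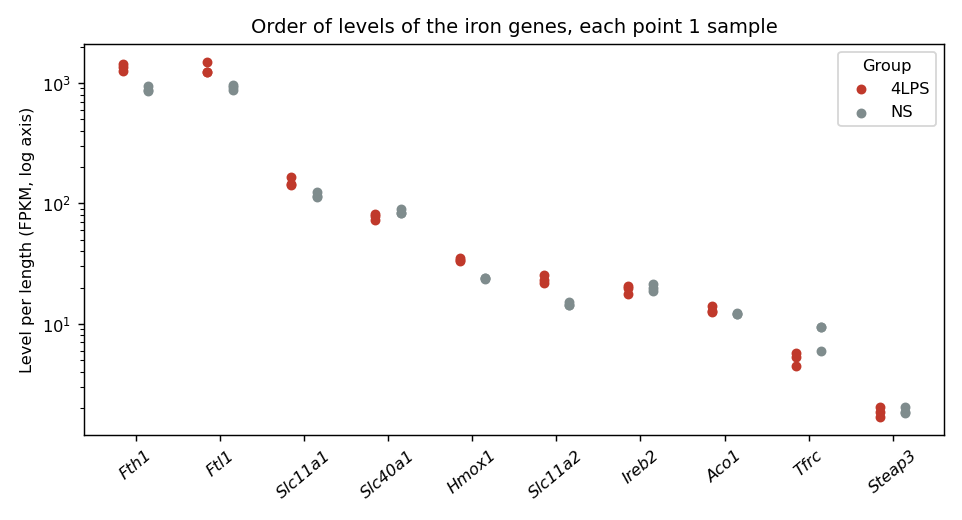
Level per length of each iron gene (y axis, FPKM, log axis), each point 1 sample, 4LPS in red to the left and NS in grey, ordered by the 4LPS mean. The ferritins stand far above the rest, and Tfrc and Steap3 are lowest.

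Compared per length, in FPKM, the 10 genes spanned a wide range of levels in both groups. In 4LPS samples Fth1 averaged 1355 ± 83.6 and Ftl1 1323 ± 154 FPKM, and in NS samples Fth1 averaged 888 ± 43.2 and Ftl1 919 ± 41.8 FPKM (SD, n = 3 each). Their order changed between the groups, but their ranges overlapped in each, so they did not differ beyond their spread. They ranked 47 and 49 among the 13151 genes tested in 4LPS samples. Slc11a1 followed with a mean of 151 FPKM in 4LPS samples and 118 FPKM in NS samples. Slc40a1 came next with 77.6 FPKM in 4LPS samples and 85.1 FPKM in NS samples, and Hmox1 after it, with 34.0 FPKM in 4LPS samples and 23.9 FPKM in NS samples. Slc11a2 and Ireb2 changed places: Slc11a2 averaged 23.5 and Ireb2 19.5 FPKM in 4LPS samples, and Slc11a2 averaged 14.6 and Ireb2 19.9 FPKM in NS samples. In each group their ranges were separate. Aco1 (13.1 FPKM in 4LPS samples, 12.1 FPKM in NS samples), Tfrc (5.16 FPKM in 4LPS samples, 8.20 FPKM in NS samples) and Steap3 (1.86 FPKM in 4LPS samples, 1.90 FPKM in NS samples) closed the order. Apart from the ferritins, every neighbouring pair in that order was separated in both groups. FPKM values carry no composition factor, so differences between groups are read from the CPM values above.

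The genes whose pattern over the 6 samples was most like that of Slc11a2 were sought among 8776 genes tested with a mean of at least 10 CPM. Predicted genes (Gm and Rik names) were left out of the 8776. Likeness was the root mean square difference of centred log2 CPM, for which a smaller value means a closer pattern. The nearest were Relb, an NF-kappa-B subunit (0.041), Rpl15, a ribosomal protein (0.050), Tap1, a peptide transporter of antigen presentation (0.059), B4galnt1, an enzyme of ganglioside synthesis (0.063), and P2rx4, an ATP-gated channel (0.066). Relb had 39.6, 37.39 and 46.92 CPM in 4LPS samples, against 23.16, 22.95 and 23.06 CPM in NS samples, with the same high 4LPS replicate 3 as Slc11a2. For Fth1 the nearest were Soat1, which esterifies cholesterol (0.037), Eif3h, a translation initiation factor subunit (0.042), Grn, progranulin (0.050), Sfi1, a centrosome protein (0.061), and Vars, a tRNA synthetase (0.061). These are descriptions over 6 samples in which the group difference dominates.

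Beyond the 10, a list of 82 other genes of iron and heme handling was read in 7 groups. Of these, 71 were tested, 5 were higher and 4 lower in 4LPS samples, and 62 did not pass, so 12.7% passed, against 16.4% of all genes tested. Their median log2 fold change was -0.011, against -0.016 over all genes. Ftmt, Hamp and Hamp2 were not analysed here.

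**Figure D4:**
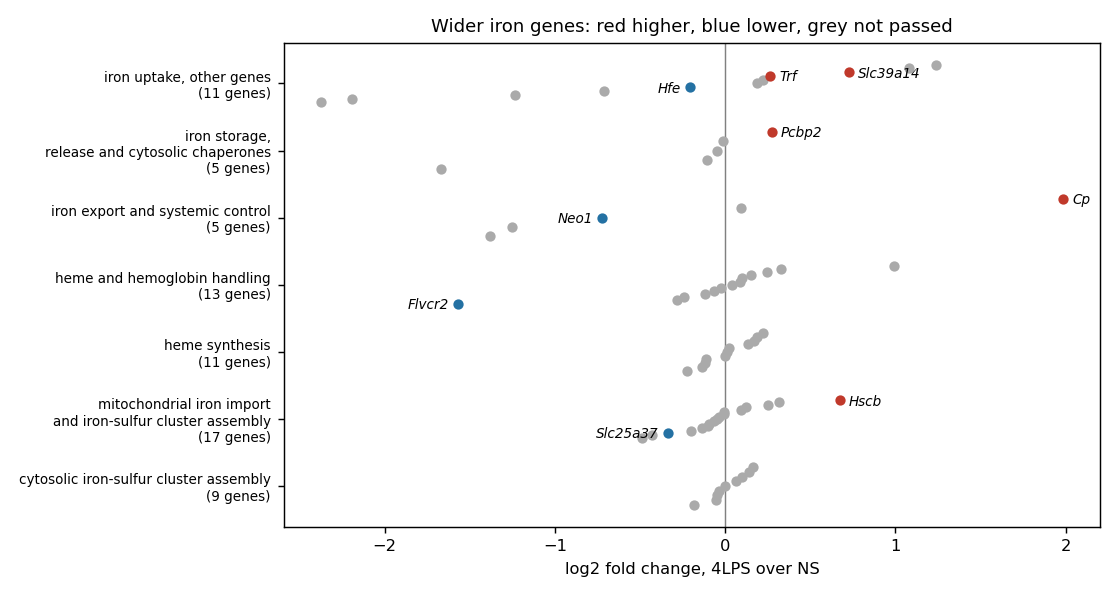
Log2 fold change, 4LPS over NS (x axis), of the 71 tested genes of the 7 wider iron lists (rows), each point 1 gene. The 5 genes that were higher (red) and the 4 that were lower (blue) are named, and the grey points did not pass.

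Among 11 other uptake genes, 2 were higher and 1 lower. Slc39a14, the metal carrier ZIP14 that takes up iron not bound to transferrin, had 44.18, 45.54 and 45.84 CPM in 4LPS samples, against 26.5, 29.05 and 26.22 CPM in NS samples (log2 0.73, SE 0.067, adjusted p = 3.77e-04). Its samples were closely grouped, and it passed in 19 of 19 settings. Trf, transferrin itself, had 1986, 1908 and 1917 CPM in 4LPS samples, against 1565, 1670 and 1602 CPM in NS samples (log2 0.27, SE 0.058, adjusted p = 0.0199). Its call was lost in 8 of 19 settings, where the adjusted p reached 0.126. Oligodendrocytes and choroid plexus also make transferrin. The oligodendrocyte marker sums were 227 to 304.5 CPM in 4LPS samples and 277.2 to 484.7 CPM in NS samples, and the choroid plexus sums were 1.971 to 2200 CPM in 4LPS samples and 649.2 to 6525 CPM in NS samples, both with lower means in 4LPS samples. The part of these cells in the Trf values was not tested. Hfe, which binds the transferrin receptor, had 155.2, 143.4 and 150.9 CPM in 4LPS samples, against 164.8, 180 and 174.2 CPM in NS samples (log2 -0.21, SE 0.053, adjusted p = 0.0347), and its call was lost in 6 of 19 settings, where the adjusted p reached 0.148.

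Several uptake genes varied with other cells, and these were named after their values were seen. Steap2, a metalloreductase, had 13.83, 0.408 and 4.611 CPM in 4LPS samples, against 44.5, 36.59 and 5.33 CPM in NS samples, in the same order of samples as the choroid plexus sums of 2200, 1.971 and 526.8 CPM and of 6525, 5678 and 649.2 CPM. It did not pass with all samples (log2 -2.19, adjusted p = 0.157). Without NS replicate 3 it did (log2 -2.68, adjusted p = 0.0369), and with each sample left out in turn its log2 fold change ran from -3.51, without 4LPS replicate 1, to -1.63. Ltf and Lcn2, the iron-binding lactoferrin and the siderophore-binding lipocalin 2 of neutrophil granules, followed the neutrophil sums. Ltf had 151.2, 65.66 and 106.6 CPM in 4LPS samples, against 24.86, 28.23 and 100.1 CPM in NS samples. Neither passed with all samples (adjusted p = 0.199 for Ltf and 0.108 for Lcn2). Without NS replicate 3 both did, with adjusted p = 0.00542 for Ltf and 0.00589 for Lcn2. The part of these cells in the values was not tested.

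Of 5 genes of iron storage, ferritin release and cytosolic delivery, 1 was higher: Pcbp2, an RNA-binding protein that also brings iron to ferritin, with 253.6, 260.7 and 262.2 CPM in 4LPS samples, against 216.3, 215.8 and 209.9 CPM in NS samples (log2 0.27, SE 0.040, adjusted p = 0.00374). Ncoa4, the receptor that takes ferritin to the lysosome for breakdown, was named after its values were seen. It had 249.4, 258.9 and 249.4 CPM in 4LPS samples, against 241.7, 254.1 and 267.6 CPM in NS samples, and the groups overlapped (log2 -0.011, SE 0.050, adjusted p = 0.898).

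Of 5 genes of export and its control, 1 was higher and 1 lower. Cp, ceruloplasmin, the copper enzyme that oxidizes iron leaving through ferroportin, showed the largest change among the called genes of the wider lists: 100.8, 110.7 and 150.9 CPM in 4LPS samples, against 23.22, 22.7 and 45.43 CPM in NS samples (log2 1.99, SE 0.28, adjusted p = 0.00325). NS replicate 3 was the highest NS sample, still well below every 4LPS sample, and the call held in 19 of 19 settings. Astrocytes are a known source of ceruloplasmin, and the 7 astrocyte markers summed to 204.4 to 233.4 CPM in 4LPS samples and 274.9 to 292.9 CPM in NS samples, with 3 of 7 lower. Most of that sum was Slc1a3, which was not called (means of 170.5 CPM in 4LPS samples and 177 CPM in NS samples). Within each group Cp had the same order of samples as the endothelial sums given for Tfrc and the pericyte and smooth muscle sums. Both of these sums had lower means in 4LPS samples, where Cp was higher. The part of other cells in the Cp values was not tested. Neo1, neogenin, a receptor in hepcidin control in the liver, had 18.28, 16.11 and 16.34 CPM in 4LPS samples, against 28.95, 25.71 and 29.01 CPM in NS samples (log2 -0.72, SE 0.094, adjusted p = 0.00216).

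Among 13 genes of heme and hemoglobin handling, 1 passed. Flvcr2, first described as a heme carrier and later as a choline carrier of brain vessels, had 2.024, 1.156 and 2.102 CPM in 4LPS samples, against 6.671, 4.401 and 4.649 CPM in NS samples (log2 -1.57, SE 0.29, adjusted p = 0.0108). The endothelial sums given for Tfrc were lower in 4LPS samples too, and their part was not tested. In this list 0 genes were higher by edgeR and 1 was at an unadjusted p under 0.05, while DESeq2 called 1 higher and edgeR without NS replicate 3 called 2. The regulators of Hmox1 were named after their values were seen, and neither passed by edgeR with all samples. Nfe2l2, the activator NRF2, had 233.1, 242.3 and 231.9 CPM in 4LPS samples, against 214.5, 202.1 and 220.8 CPM in NS samples (log2 0.15, SE 0.048, adjusted p = 0.0702), with no overlap. It passed with DESeq2 (adjusted p = 0.0480) and without NS replicate 3 (log2 0.18, adjusted p = 0.0368). Bach1, the heme-sensing repressor, had 238.7, 246.7 and 238.1 CPM in 4LPS samples, against 226.8, 223.1 and 231.8 CPM in NS samples (log2 0.086, SE 0.041, adjusted p = 0.18), also with no overlap. For both regulators every 4LPS sample lay above every NS sample, as in 19.9% of all genes tested. NRF2 binds the antioxidant response element, whose core TGACNNNGC was searched on both strands in the 250 bases before the start of each gene in RefSeq promoter windows of GRCm38.p6. Windows were given for 7 of the 10 iron genes and 0 of these held the core, against 13.6% of 13105 genes. With only 7 genes searched, 0 cannot be set apart from that share. Sequence beyond the 250 bases was not searched, so no conclusion is drawn on such elements. Slc40a1, Slc11a2 and Hmox1 were not searched.

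Heme synthesis and the cytosolic iron-sulfur assembly gave no calls by edgeR with TMM factors, DESeq2 or limma-voom. In heme synthesis 0 of 11 genes passed, and 0 were at an unadjusted p under 0.05. Those with the highest mean CPM, which is not scaled for length, were Alas1, the first enzyme of the pathway (log2 0.14, SE 0.065), Fech, which inserts the iron (log2 -0.11, SE 0.063), and Tmem14c, which carries the heme precursor into mitochondria (log2 0.011, SE 0.071). In the cytosolic assembly 0 of 9 genes passed and 2 were higher at an unadjusted p under 0.05. The highest mean CPM belonged to Mms19 (log2 0.17, SE 0.060), Ndor1 (log2 0.098, SE 0.058) and Ciao1 (log2 -0.18, SE 0.078, adjusted p = 0.151). Ciao1 was called lower in 3 of 19 settings: without a composition factor (adjusted p = 0.0497) and in the filtered FPKM fits (adjusted p = 0.0496 and 0.0499). Of 17 genes of mitochondrial iron import and iron-sulfur assembly, 1 was higher and 1 lower. Slc25a37, mitoferrin 1, the iron importer of mitochondria, had 133.3, 152.5 and 147.7 CPM in 4LPS samples, against 183.3, 180.3 and 184.5 CPM in NS samples (log2 -0.34, SE 0.057, adjusted p = 0.00731). Hscb, a chaperone that passes on finished clusters, had 8.567, 7.069 and 8.882 CPM in 4LPS samples, against 5.79, 5.093 and 4.463 CPM in NS samples (log2 0.68, SE 0.16, adjusted p = 0.0294), and its call was lost when 4LPS replicate 1, 4LPS replicate 3 or NS replicate 2 was left out, with an adjusted p up to 0.0989.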

How the data were processed

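Reads were paired-end and were filtered by the authors, who aligned them with HISAT2 2.0.4 and Bowtie2 2.2.5 (build mm39 by the methods; the processing notes list mm10 too). The authors deposited expected counts, FPKM and TPM per gene from RSEM 1.2.8, and their notes name DESeq2 1.16.1. For the annotation and strandedness, nothing was given in the sources used here. The 6 columns of normalized counts and the group means in the table were not used.

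Expected counts (2.77% with decimals) were rounded, filtered with filterByExpr and tested in edgeR 4.0.16 under R 4.3.3 (TMM factors, quasi-likelihood), adjusting by Benjamini-Hochberg over 13151 genes with a threshold of 0.05. SEs were obtained from the fold change and the F statistic. Shares and ratios were compared by exact two-sided permutation tests. No 2 samples of the same group agreed within sampling noise. Alternatives used DESeq2 1.42.0, limma 3.58.1, other factors and filters, FPKM with pseudocounts of 1 and 0.1, a replicate block, a length correction and each sample left out, which for the ratios was added after seeing the data. The code was tested on simulated data.

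Named genes were all 10 members, every wider-list gene that passed, the 3 with the highest mean CPM of a list with none, and the 5 nearest patterns to Slc11a2 and Fth1. The members and lists were chosen with earlier results of these data known. On GRCm39, 5 members overlap a gene on the opposite strand, of which 0 are in the table, and without strand their reads cannot be told apart. Ftl1 also overlaps Gm10252 on the same strand, which is not in the table either.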

Additional observations from a re-analysis of the deposited data

How the results depend on the processing

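Fth1, Ftl1, Slc11a1, Slc11a2 and Hmox1 kept their direction and their call in 19 of 19 settings. The count of iron genes called higher was 5 or 6 in every setting, and 1 (Tfrc) was called lower without a composition factor, with DESeq2 and without NS replicate 2, against 0 otherwise. Their median log2 fold change was 0.23 without a composition factor and 0.23, 0.23 and 0.23 in the FPKM fits (pseudocount 1, 0.1, and 1 without a filter), and 0.31 to 0.38 with a sample left out. Over all genes, 1308 were higher and 845 lower (60.8% of calls higher), against 906 and 1711 without a composition factor (34.6% higher, with the median shifted by -0.098), and 823 and 1486, 813 and 1454, and 818 and 1335 in the FPKM fits. With a sample left out, 781 to 1629 were higher and 363 to 1215 lower. In the wider lists 3 to 10 were higher and 3 to 11 lower with a sample left out, against 5 and 4 with all samples, and without a composition factor 9 were lower with a median of -0.11, against 10 and 9 lower in the filtered FPKM fits. NS replicate 3 gave the upper ends. The share of ferritin rose by 0.45 on the log2 scale in TPM, against 0.55 in counts.

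Genes near no change turned sign. Log2 fold changes shifted by a median of -0.098 without a composition factor, and by -0.088, -0.093 and -0.086 in the FPKM fits. Without a composition factor and in the FPKM fits, in that order, Ireb2 was -0.037, -0.035, -0.037 and -0.035, Steap3 -0.031, -0.021, -0.032 and -0.021, Bach1 -0.012, -0.010, -0.010 and -0.010, and Tmem14c -0.088, -0.079, -0.080 and -0.079. Tmem14c was also -0.019 with upper quartile factors, -0.0036 with the length correction and -0.00088 with the block and the length correction together, and Ndor1 was -0.00033 without a composition factor. With a sample left out, Slc40a1 ran from -0.067 to 0.019, Ncoa4 from -0.047 to 0.029 and Tmem14c from -0.045 to 0.063. The cause was not tested.

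Same-numbered samples correlated at 0.50, -0.25 and 0.11 in their deviations, so the numbers were not taken as pairs. With the replicate block 1275 genes were higher and 1081 lower, 5 iron genes were higher and 0 lower, and Slc11a2 changed by 0.80 and Fth1 by 0.70 on the log2 scale. With 3 samples a group, changes in genes as low as Steap3 were not detectable unless large.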
